A study of Mus musculus with 6 samples.

Results

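The CD28 family and the coinhibitory receptors of T cells were followed in regulatory T cells (Tregs) of neonatal mouse skin and skin-draining lymph nodes (SDLNs). The set held 10 genes, chosen by name from the receptor families: the CD28 family genes Cd28, Icos, Ctla4, Pdcd1 and Btla, the CD155 receptor genes Tigit, Cd226 and Cd96, and the coinhibitory receptor genes Lag3 and Havcr2. All 10 were found among the 49315 genes of the count table. The study sorted Tregs from Foxp3-GFP reporter mice, in which Foxp3-expressing cells fluoresce, to compare skin Tregs with their lymph node counterparts. Bulk RNA-seq gave 3 libraries for each tissue, lettered A to C within each tissue, and values given in threes follow the order A, B and C. All came from mice of 9 days of age, for which no treatment is named, and each sample pooled 3 mice. CD45+ cells were enriched on beads, and live CD45+ CD4+ Foxp3-EGFP+ cells were then sorted, so a bulk value averages all cells in the gate.

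CD28 and ICOS are costimulatory receptors that add to the signal of the T cell receptor. CTLA-4 competes with CD28 for the ligands CD80 and CD86, is made at high level by Tregs and is needed for their suppressive function, while PD-1 (Pdcd1), BTLA, TIGIT, LAG-3 and TIM-3 (Havcr2) restrain T cells after they meet their ligands. TIGIT, CD96 and CD226 share the ligand CD155, to which CD226 responds with activation and TIGIT with inhibition.

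Ctla4 (ENSMUSG00000026011, chromosome 1, 60887000 to 60915832, plus strand), Icos (ENSMUSG00000026009, chromosome 1, 60977927 to 61000320, plus strand) and Cd28 (ENSMUSG00000026012, chromosome 1, 60716800 to 60773359, plus strand) are the only 3 protein-coding genes in the 284 kb they span (mouse genome build GRCm38). Btla, Cd96 and Tigit lie within 2471 kb of one another on chromosome 16. RefSeq start sites were found for 6 of the 10 members, and the 228 bases that end 23 bases before the start are shown for Ctla4, Btla and Cd96, which were called different between the tissues, so that the sequence before each start can be read beside its values (RefSeq, build GRCm38.p6). The windows are chr1:60908775-60909002 on the plus strand for Ctla4, chr16:45224087-45224314 on the plus strand for Btla and chr16:46120271-46120498 on the minus strand for Cd96, each written 5′ to 3′ along the gene and outside annotated exons. The Ctla4 window lies inside the annotated gene, in an intron of a longer transcript that starts upstream. Capitals mark matches to 5 short motifs, each searched on both strands. The letters of the TATA box were TATAAA. The core of forkhead sites, the family to which Foxp3 belongs, was searched as TAAACA and the AP-1 site as TGANTCA. For the ETS core the letters were GGAAGT. For the NFAT core they were GGAAAA.
Ctla4: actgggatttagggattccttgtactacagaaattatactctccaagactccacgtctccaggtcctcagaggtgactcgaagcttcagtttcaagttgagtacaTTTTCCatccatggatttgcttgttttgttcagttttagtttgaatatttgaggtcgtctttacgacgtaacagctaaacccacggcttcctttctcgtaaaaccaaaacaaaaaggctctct
Btla: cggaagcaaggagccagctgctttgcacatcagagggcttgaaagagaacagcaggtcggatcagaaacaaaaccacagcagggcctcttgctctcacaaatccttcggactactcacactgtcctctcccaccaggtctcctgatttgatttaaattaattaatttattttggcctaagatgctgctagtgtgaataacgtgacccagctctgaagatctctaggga
Cd96: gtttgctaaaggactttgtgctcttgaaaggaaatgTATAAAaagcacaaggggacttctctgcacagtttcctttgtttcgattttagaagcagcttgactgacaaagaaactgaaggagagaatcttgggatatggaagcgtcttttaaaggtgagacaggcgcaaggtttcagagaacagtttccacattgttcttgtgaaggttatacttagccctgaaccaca
The Ctla4 window held the NFAT core on the other strand, starting 145 bases before the start, and 19.0% of 32851 such windows across the genome held that motif. The Cd96 window held TATAAA 214 bases before the start, a motif found in 11.6% of windows. The Btla window held none of the 5. Of the other windows, those of Pdcd1 and Tigit held none and that of Havcr2 held the AP-1 motif, found in 6.30% of all windows, and the ETS core, found in 17.3%.

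Total counts were 3748669 to 11741784 in skin and 47243498 to 116158706 in SDLN libraries, and 2911 to 5317 genes reached 1 CPM (CPM scales a gene's count to the library total) in skin against 12397 to 13002 in SDLN. A count of 0 allows up to 3 counts, the floor, which is 0.255 to 0.800 CPM in skin. Genes defining the sorted cells were sparse in skin: Foxp3 was counted 0, 330 and 1 times in the skin libraries and Cd4 0, 1861 and 2 times, where every SDLN library held at least 1788 and 14288 counts. Summed over a list of 12 T cell genes that excludes the 10 receptors, skin libraries held 5091 to 6353 CPM and SDLN libraries 9360 to 9597 CPM. A list of 18 macrophage and dendritic cell genes summed to 34423 to 60650 CPM in skin and 439 to 769 CPM in SDLN, with 13 of the 18 higher in every skin library and none at 0 throughout skin. Of 9 NK and CD8 T cell genes, 7, among them Cd8a, Prf1 and Ncr1, were at 0 in all skin libraries, and the sums were 365 to 729 CPM in skin, of which Nkg7 made 365 to 604, and 131 to 166 CPM in SDLN. B cell genes summed to 586 to 861 CPM in skin and 1473 to 1712 CPM in SDLN, with Cd79a, Ms4a1 and Pax5 at 0 throughout skin. Cd79b passed the floor only in skin Tregs C, and Ighm made nearly all of the sum in A and B. The sums for gamma delta T cells, mast cells, keratinocytes and fibroblasts were at most 117, 226, 0.0852 and 90.6 CPM in skin and at most 24.4, 26.6, 9.59 and 7.56 CPM in SDLN, with Tcrg-C1, Kit, Krt5, Krt14 and Pdgfra at 0 throughout skin. Other genes of these lists passed the floor in a single skin library: Cpa3 and Cma1 in A, Col1a1 and Col3a1 in B and Trdc in C. The part of these differences in the receptor values was not tested.

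Across the 10 receptors, 4 were counted in every skin library, 3 were counted in only some of them and 3 were at 0 in every one. With edgeR's quasi-likelihood test and Benjamini-Hochberg adjustment over 13572 genes, 1 of the 10, Ctla4, was called higher in skin at an adjusted p under 0.05, where 1.04% of all tested genes were. Lower calls were made for 3, Btla, Cd96 and Cd226, where 45.3% of all tested genes were called lower, and 6 were not called. Every skin library lay above every SDLN library for 2 members, Ctla4 and Cd28 (2.39% of all genes), and below for 4, Pdcd1, Btla, Cd96 and Cd226 (53.6% of all genes). The share of members that fell was thus not above that of all genes. The median log2 fold change of skin over SDLN was 0.64 over the members and -2.21 over all genes tested, or -1.29 with genes at the floor in skin set to their bound, which left the members' median at 0.64.

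**Figure D1:**
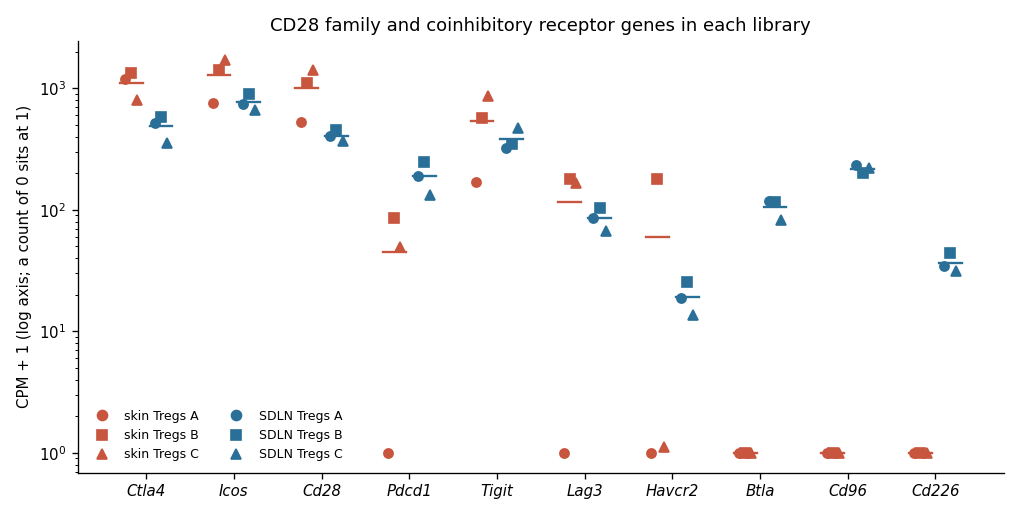
CPM + 1 on a log axis for the 10 members in each of the 6 libraries, with lines at the group means (n = 3). Ctla4 and Cd28 lay higher in all 3 skin libraries than in any SDLN library, while Btla, Cd96 and Cd226 sat at a count of 0 in all 3.

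Ctla4 was the member called higher in skin. Its level was 1181, 1322 and 796 CPM in the skin libraries, while the SDLN libraries gave 519.7, 583 and 353 CPM. The lowest skin library thus exceeded the highest SDLN library. On average skin held 1099.5 ± 272 CPM and SDLN 485 ± 119 CPM (SD, n = 3 each), a 2.27-fold difference (log2 fold change 1.15, SE 0.37, edgeR adjusted p = 0.0447). In bulk RNA, a difference in the number of cells that make a transcript and one in its amount per cell cannot be told apart. The direction held under all 15 alternatives, whereas the call was kept in 4 and lost in 11. It was lost without any one of the 6 libraries, with adjusted p from 0.0567 without skin Tregs A to 0.198 without SDLN Tregs A.

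Cd28 lay above SDLN in every skin library as well, without passing the test. The skin libraries gave 531, 1100.0 and 1405 CPM and the SDLN libraries 403, 450.4 and 365 CPM. Skin Tregs A was the lowest of the skin libraries and stood nearest to the SDLN range. The means were 1012 ± 443 and 406 ± 43.0 CPM, or 1.44 apart on the log2 scale (SE 0.60, edgeR adjusted p = 0.118). Without skin Tregs A the log2 fold change was 1.64 and the adjusted p 0.00719, and with DESeq2 on all 6 libraries they were 1.44 and 0.0122. Without skin Tregs C, the highest of the 3, the log2 fold change was 0.79 and the adjusted p 0.348.

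Icos overlapped between the tissues. Skin held 751, 1416 and 1698 CPM of it, SDLN 742, 891 and 658 CPM. Skin Tregs A lay within the SDLN range and the other two lay above it. The means of 1288 ± 486 and 763 ± 118 CPM differed by 0.86 on the log2 scale (SE 0.53, edgeR adjusted p = 0.307), by 1.04 without skin Tregs A (adjusted p = 0.0234) and by 0.28 without skin Tregs C (adjusted p = 0.747).

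The 3 neighbours on chromosome 1 were also set against the T cell list, since that list took a smaller share of the skin libraries. Per 1000 counts of the list, Ctla4 had 186, 215 and 156 counts in the skin libraries, where SDLN had 54.1, 62.3 and 37.1. Icos had 118, 230.3 and 334 in skin and 77.3, 95.2 and 69.1 in SDLN, and Cd28 had 83.6, 179 and 276 in skin and 42.0, 48.1 and 38.3 in SDLN. On this scale every skin library lay above every SDLN library for these 3 of the 10 members and for 4.31% of all genes. With libraries scaled to the list, edgeR called the same 3 higher (1.78% of all tested genes) and Btla, Cd96 and Cd226 lower (44.1%), with log2 fold changes of 1.86 for Ctla4, 1.497 for Icos and 2.07 for Cd28 and adjusted p of 0.00688, 0.0337 and 0.0177. The other 4 members were not called, among them Tigit (1.25, adjusted p = 0.257). This scaling moved the log2 fold changes of single genes by a median of 0.57 over all genes, so each of these values is to be read relative to that shift.

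Ratios between members in the same library do not depend on the library total, and 4 were computed. The 3 whose genes were counted in every library were compared with exact two-sided permutation tests, which cannot give a p below 0.10 with 3 libraries a group. There were 1.30 counts of Icos for each count of Cd28 in skin Tregs and 1.87 in SDLN Tregs (geometric means). As log2 ratios, skin libraries gave 0.50, 0.36 and 0.27 and SDLN libraries 0.88, 0.98 and 0.85. Every skin library thus lay below every SDLN library, with a difference of -0.53 (means 0.38 ± 0.11 and 0.91 ± 0.070, exact p = 0.10, adjusted over 3 ratios 0.30). That difference was -0.59 to -0.47 when single libraries were left out.

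For Ctla4 to Cd28 the log2 ratio was 1.15, 0.26 and -0.82 among skin libraries, next to 0.37, 0.37 and -0.045 among SDLN libraries. The skin libraries spread on both sides of the SDLN libraries, and the means of 0.20 ± 0.99 and 0.23 ± 0.24 gave an exact p of 1.0. Ctla4 to Icos likewise overlapped, at -0.18 ± 0.88 in skin and -0.67 ± 0.20 in SDLN (exact p = 0.50, adjusted 0.75). Among skin libraries, Cd28 and Icos were lowest in A and highest in C, whereas Ctla4 was lowest in C.

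**Figure D2:**
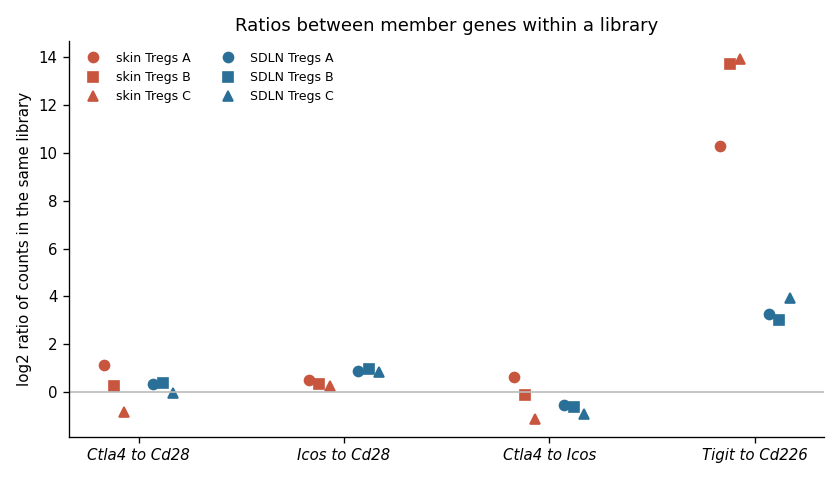
Log2 ratios of the counts of 2 members in the same library (0.5 added to each count), for 3 skin and 3 SDLN libraries. The ratio of Icos to Cd28 was 0.27 to 0.50 in skin and 0.85 to 0.98 in SDLN, that of Ctla4 to Cd28 ran from -0.82 to 1.15 in skin, and that of Tigit to Cd226 rests in skin on a Cd226 count of 0.

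Among the receptors for CD155, Tigit was counted in all libraries while Cd226 and Cd96 were not counted in skin. Tigit (ENSMUSG00000071552, chromosome 16, 43648867 to 43664146, minus strand) stood at 167, 565 and 863 CPM in skin, with 321, 349 and 474 CPM in the SDLN libraries. The skin libraries lay on both sides of the SDLN range. The means of 532 ± 350 and 381 ± 81.4 CPM differed by 0.64 on the log2 scale (SE 0.82, edgeR adjusted p = 0.717), and without skin Tregs C the difference was -0.22.

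Cd96 (ENSMUSG00000022657, chromosome 16, 46035657 to 46120251, minus strand) measured 231, 198 and 219 CPM in the SDLN libraries, from 10353 to 26864 counts, and had 0 counts in every skin library. Against the floor of 3 counts per skin library, skin was at least 467-fold lower, and edgeR's adjusted p was 0.00747, or 0.0524 without SDLN Tregs A. This bound and the fold bounds that follow cover counting error only, not transcripts lost before counting. Cd226 (ENSMUSG00000034028, chromosome 18, 89176967 to 89272229, plus strand) measured 33.5, 43.2 and 30.6 CPM in the lymph node libraries and was also at 0 in all 3 skin libraries, at least 77.3-fold lower (adjusted p = 0.00363). Its call held in all 14 alternatives that tested it.

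With Cd226 at 0 in skin, the ratio of Tigit to Cd226 lay higher in all 3 skin libraries. Tigit had 625, 6637 and 7799 counts there, and the log2 ratio was 10.29 to 13.93 in skin and 3.01 to 3.95 in SDLN. The count of 0 fixes this order, so no test is given. The difference of 9.23 depends on the 0.5 added to each count and was 6.65 with 3 added.

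Btla (ENSMUSG00000052013, chromosome 16, 45224315 to 45257670, plus strand), the receptor for HVEM, was likewise at 0 in skin. Its SDLN levels were 118, 115 and 81.9 CPM, from 3869 to 13689 counts. Skin was at least 227-fold lower, with an edgeR adjusted p of 0.0118, and the call was lost without SDLN Tregs A (adjusted p = 0.0592), B (0.0616) or C (0.0579).

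How often a gene was at the floor in skin varied with its SDLN level. Of 1760 genes with a mean of 100 to 300 CPM in SDLN Tregs, the range of Pdcd1, Btla and Cd96, 8.47% did not pass the floor in any skin library and 28.1% were over it in all 3. Of 3649 genes at 30 to 100 CPM, the range of Lag3 and Cd226, 28.7% were at the floor in all 3. Of 485 genes at 300 to 1000 CPM, the range of Ctla4, Icos, Cd28 and Tigit, 1.03% were at the floor throughout skin and 67.2% were over it in all 3 libraries. Of all genes called lower in skin, 94.4% were at the floor in every skin library, as were all 3 receptors called lower.

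**Figure D3:**
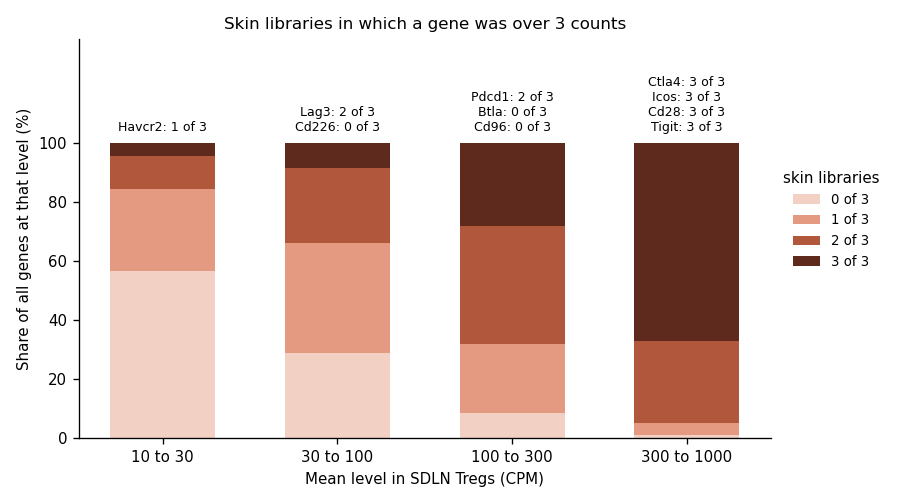
Share of all genes, grouped by their mean level in SDLN Tregs (CPM), that were over 3 counts in 0, 1, 2 or 3 of the 3 skin libraries, with the members of each range and their own number of libraries written above the bars. Btla and Cd96 sit in a range in which 8.47% of genes were over 3 counts in no skin library, and Cd226 in one in which 28.7% were.

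Pdcd1 (ENSMUSG00000026285, chromosome 1, 94038305 to 94052553, minus strand), which encodes PD-1, was lower in every skin library than in any SDLN library without passing the test. Skin levels were 0, 84.1 and 48.8 CPM, below SDLN levels of 189, 245 and 132 CPM. The log2 fold change was -1.91 (SE 2.10, edgeR adjusted p = 0.643; means 44.3 ± 42.2 and 189 ± 56.3 CPM), and no alternative gave a call. The value was -4.73 with limma voom.

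Lag3 (ENSMUSG00000030124, chromosome 6, 124904361 to 124911705, minus strand), a receptor for MHC class II, stood at 0, 178 and 164 CPM among skin libraries. Among SDLN libraries it stood at 84.5, 102 and 66.1 CPM. The skin libraries therefore lay on both sides of the SDLN range, with means of 114 ± 98.9 and 84.1 ± 17.8 CPM (log2 fold change 0.65, SE 2.17, edgeR adjusted p = 0.927), and limma voom turned the direction, at -2.21. With single skin libraries left out it was 1.02 without A, 0.30 without B and 0.021 without C, and without SDLN Tregs C it was 0.35.

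Havcr2 (ENSMUSG00000020399, chromosome 11, 46454935 to 46481255, plus strand), which encodes TIM-3, a receptor found on exhausted T cells, activated Tregs and myeloid cells, rested on 1 skin library. It was counted 0, 2084 and 1 times in the skin libraries, or 0, 177 and 0.111 CPM, whereas SDLN levels were 18.0, 24.4 and 12.6 CPM. Skin Tregs B was far above all SDLN libraries and the other two far below them. The log2 fold change was 1.77 (SE 2.78, edgeR adjusted p = 0.786), and without skin Tregs B it was -7.83 with an adjusted p of 0.00391. The macrophage and dendritic cell list, most of whose sum comes from Cd74 and MHC class II genes, summed to 60650, 38282 and 34423 CPM in the skin libraries. Of its 18 genes, 9 were highest in skin Tregs A, 8 in B and 1 in C. As with Havcr2, 4 of them passed the floor only in B, namely Cd14, Fcgr1, Itgax and Flt3, at 169.8, 95.7, 84.3 and 0.426 CPM there and 0 in A and C. Foxp3 and Cd4 also passed the floor only in B, the deepest skin library. Of 2680 genes at 10 to 30 CPM in SDLN Tregs, the range of Havcr2, 28.0% were over the floor in 1 skin library only. The share over the floor was 12.4% in A, 27.2% in B and 23.9% in C. The part of these genes or of depth in the Havcr2 value was not tested.

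**Figure D4:**
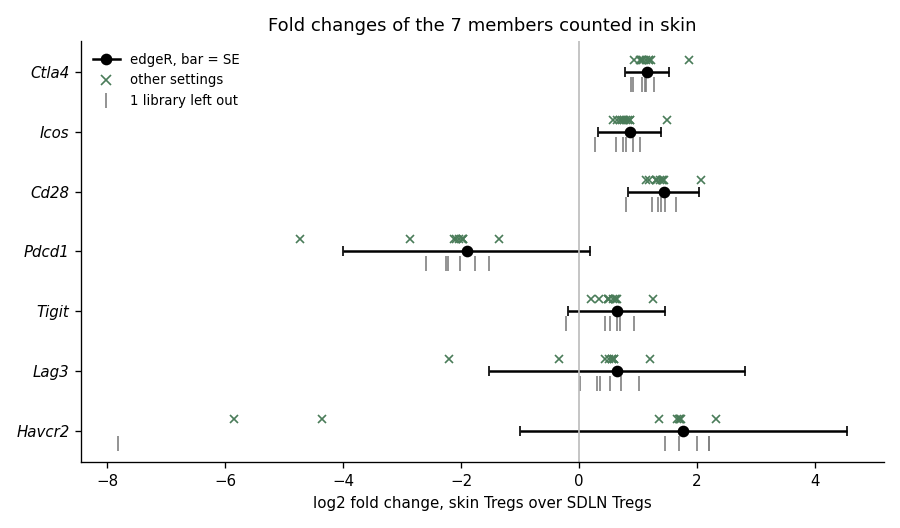
Log2 fold changes of skin over SDLN Tregs for the 7 members counted in skin, with the SE as bars, the other settings as crosses and fits without 1 library as ticks. All values for Ctla4, Icos and Cd28 lay above 0 and all for Pdcd1 below 0, while those of Tigit, Lag3 and Havcr2 lay on both sides, down to -7.83 for Havcr2 without skin Tregs B.

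To rank the receptors, CPM was divided by the annotated exon length in kb. In SDLN Tregs the order was Tigit (415 ± 88.6 CPM per kb), Icos (223 ± 34.4), Ctla4 (208 ± 51.0), Cd96 (99.0 ± 7.64), Pdcd1 (97.8 ± 29.2), Cd28 (66.3 ± 7.03), Lag3 (39.9 ± 8.44), Btla (30.9 ± 5.89), Cd226 (7.31 ± 1.35) and Havcr2 (6.73 ± 2.17). Neighbours were apart by more than their summed SDs between Tigit and Icos, Ctla4 and Cd96, Cd28 and Lag3, and Btla and Cd226, and not elsewhere. In skin Tregs the order was Tigit (579 ± 380 CPM per kb), Ctla4 (472 ± 117), Icos (376 ± 142), Cd28 (165 ± 72.4), Lag3 (54.0 ± 46.9), Pdcd1 (22.9 ± 21.9) and Havcr2 (21.8 ± 37.6), with the remaining 3 at 0. No pair of neighbours in skin was apart by more than its summed SDs. Tigit, Icos and Ctla4 were the top 3 in both tissues.

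The genes whose profile over the 6 libraries was most like that of Ctla4 were Smndc1, Pik3r1, Elf1, Cfdp1 and Dnaja1, with root mean square differences of 0.11, 0.12, 0.14, 0.20 and 0.20 in centred log2(CPM + 1) among 8169 genes whose mean over all libraries reached 10 CPM. Its neighbours Icos and Cd28 ranked 155 and 166. For Icos the closest were Akap13, Eif2s2, Lrrfip1, Cd28 and Glrx, at 0.17, 0.20, 0.21, 0.27 and 0.27. Cd28 thus ranked 4 for Icos and Tigit 110, and Ctla4 ranked 165. All 6 points share the 2 tissues and the depth gap between them, so these likenesses are a description.

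Of 15 ligand and counter-receptor genes, 13 were tested, with 1 called higher in skin, 6 lower (1.04% and 45.3% of all tested genes) and 6 not called, and a median log2 fold change of -2.57, or -1.80 with genes at the floor set to their bound, beside -2.21 and -1.29 over all genes. Lgals3, which encodes galectin-3, a reported ligand of LAG-3, gave 985, 959 and 586 CPM in skin, as compared with 158 to 223 CPM in SDLN libraries. Skin lay above throughout (843 ± 223 against 186 ± 33.0 CPM, log2 fold change 2.11, SE 0.43, edgeR adjusted p = 0.00908), and the call held in 13 of 15 alternatives. It was lost with no filter on low counts (adjusted p = 0.140) and without SDLN Tregs A (0.0531). Macrophages also make galectin-3, and the macrophage and dendritic cell genes above moved the same way; their part was not tested. The 6 called lower were Cd80, Pdcd1lg2, Pvr (CD155), Nectin1, Nectin2 and Tnfrsf14 (HVEM), all at the floor in every skin library. Pdcd1lg2, for example, was at 0 in skin against 28.9 ± 7.38 CPM in SDLN, at least 62.4-fold lower (adjusted p = 0.00329). Nectin1, Tnfrsf14, Nectin2 and Cd80 were low in SDLN too, with means of 1.61, 1.68, 3.53 and 4.95 CPM. Their bounds were only 3.48-fold, 3.64-fold, 7.63-fold and 10.7-fold lower.

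The ligand genes with the highest mean level were Hmgb1, Lgals3 and Lgals9. Hmgb1 (888 ± 430.0 CPM in skin, 898 ± 149 in SDLN) and Lgals9 (224 ± 134 and 279 ± 68.3 CPM), both reported ligands of TIM-3, were not called (edgeR adjusted p = 0.966 and 0.781). Cd86 and Cd274 (PD-L1) were named after their values were seen. Cd86 gave 0, 45.6 and 484 CPM in skin and stayed within 66.3 to 74.3 CPM in SDLN, and Cd274 gave 0, 131 and 19.2 CPM in skin and 23.2 to 63.1 CPM elsewhere. Both overlapped between the tissues.

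Of 13 other coinhibitory receptor genes tested, edgeR called 0 higher and 6 lower (1.04% and 45.3% of all tested genes), with a median log2 fold change of -1.36, or -1.29 at the bound. At an unadjusted p under 0.05 there were also 0 higher, while DESeq2 called 1 (Klrg1) and limma voom 0. Cd6, a T cell surface receptor for CD166, was the one of these that was counted in skin. Skin libraries gave 449, 347 and 191 CPM and SDLN libraries 824, 749.9 and 661 CPM, so all skin libraries were lower (329 ± 130.0 against 745 ± 81.7 CPM, log2 fold change -1.29, SE 0.39, edgeR adjusted p = 0.0376). Its call was kept in 5 of 15 alternatives and lost without skin Tregs B (adjusted p = 0.0569) or SDLN Tregs A (0.236), B (0.162) or C (0.0757), and scaling to the T cell list gave a log2 fold change of -0.52. Cd160, Lair1, Pvrig, Klrc1 and Cd101 were at 0 in skin, against mean SDLN levels of 38.9, 5.86, 3.64, 0.756 and 60.6 CPM. For Klrc1 this was near the skin floor, with a bound of only 1.63-fold lower. Klrg1, an inhibitory receptor of terminally differentiated T cells, ranged from 293 to 500.3 CPM in skin, from 203 to 222 CPM in SDLN, and was not called (log2 fold change 0.91, SE 0.58, adjusted p = 0.316), nor was Cd5, with skin levels of 0, 128 and 738 CPM and SDLN levels of 426 to 552 CPM (adjusted p = 0.943).

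**Figure D5:**
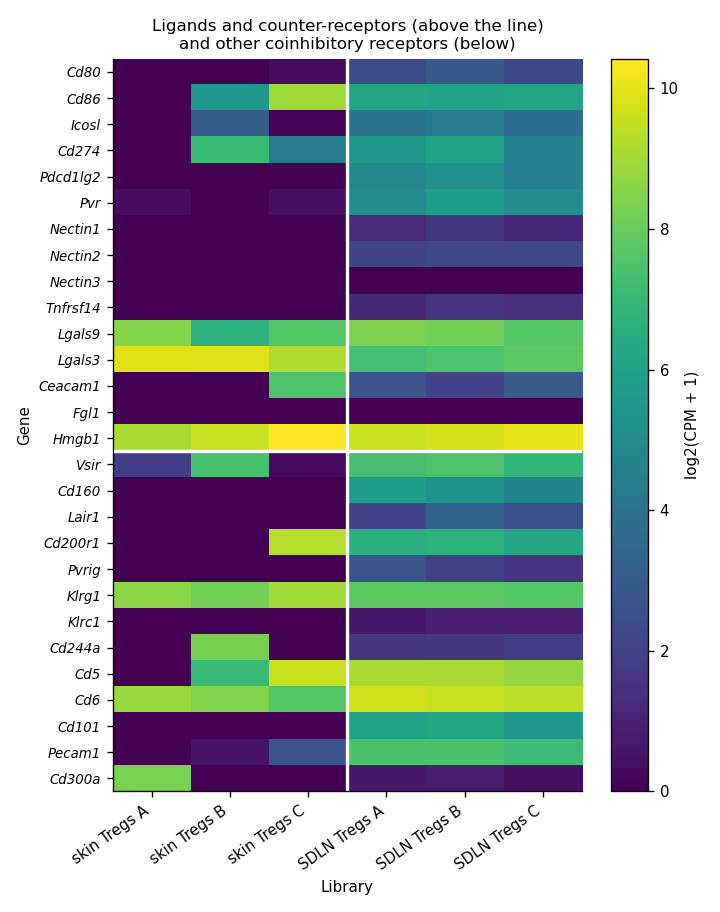
Level as log2(CPM + 1) of 15 ligand and counter-receptor genes (above the white line) and 13 other coinhibitory receptor genes (below) in the 3 skin and 3 SDLN libraries. Lgals3 was brighter in all skin libraries, Cd6 was darker in them, and Cd80, Pdcd1lg2, Pvr, Cd160 and Cd101 were dark throughout skin.

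Of 30 genes for signalling and trafficking partners, edgeR called 0 higher in skin and 7 lower (1.04% and 45.3% of all tested genes), leaving 23 not called, with a median log2 fold change of -0.89. At an unadjusted p under 0.05 there were also 0 higher, while DESeq2 called 1 (Pik3r1, a regulatory subunit of PI3-kinase) and limma voom 0. The lower calls were for Prkcq (protein kinase C theta, downstream of CD28), Csk, Cblb (a ubiquitin ligase that restrains CD28-dependent activation), Lrba (which spares CTLA-4 from degradation), Trat1 (an adaptor that helps CTLA-4 reach the surface), Bag6 and Grap2. Apart from Grap2 (0.273 ± 0.277 against 20.6 ± 5.70 CPM), these did not pass the floor in skin. Lrba and Trat1 had 0 counts there against 20.6 ± 4.85 and 60.7 ± 5.34 CPM in SDLN, at least 44.4-fold and 131-fold lower. The Csk call was lost without SDLN Tregs A (edgeR adjusted p = 0.0543), and lower calls among partners numbered 12 of 30 without skin Tregs B and 13 of 30 without skin Tregs C, where 48.9% and 46.5% of all genes were called lower. DESeq2 called 9 of the 30 lower and limma voom 13, where they called 6488 and 7192 of all 13572 genes lower.

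The highest genes of that list were Lck, the kinase that phosphorylates CD28, Ap2m1, part of the clathrin adaptor that takes CTLA-4 inside, and the transcription factor gene Tox. Lck was lower in every skin library, at 291 to 1042 CPM against 1606 to 3106 CPM (log2 fold change -1.51, SE 0.70, edgeR adjusted p = 0.159). It was called lower in 2 of 15 alternatives, with DESeq2 and without skin Tregs A. Ap2m1 (643 ± 399 and 597 ± 148 CPM) and Tox (0.267 to 919 and 567 to 740.4 CPM) overlapped (adjusted p = 0.954 and 0.996).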

How the data were processed

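Per the labels and methods, the authors trimmed paired reads (Trimmomatic 0.36), mapped them to GRCm38 (STAR 2.5.2b) and counted unique exon reads per gene (featureCounts, Subread 1.5.2). The deposited values are these raw counts. Strand setting and duplicate handling are not given in the sources used here, so floors cover counting error only. Columns carry letters and titles carry numbers, and groups came from the shared names. The tissue field of the lymph node samples reads skin, so their group was taken from the titles. GENCODE M21 named 49056 of 49315 genes. No deposited sample column was left out (0 columns not used), and no libraries were identical.

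Counts were tested with edgeR 4.0.16 (glmQLFit robust, filterByExpr, TMM, tissue only) in R 4.3.3 with Benjamini-Hochberg adjustment, threshold 0.05. Pools are the replicates, so p-values measure the spread between these samples. The methods describe taking skin and lymph nodes from mice of this age, without saying whether skin and SDLN pools shared mice. The main test treated all libraries as independent. No member shares exon sequence with another annotated gene. Ratios added 0.5 counts. Alternatives used other scalings and filters, DESeq2 1.42.0, limma 3.58.1 voom, equal depth and left-out libraries, and, chosen after the data were seen, a block by column letter, which tallies over alternatives leave out. Members and gene lists were chosen with earlier results of these data known. Named were all members, each called gene and the 3 highest of each pathway list, and the 5 genes most like Ctla4 or Icos, with exceptions stated where they stand.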

Additional observations from a re-analysis of the deposited data

How the results depend on the processing

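The count of members called higher (1, Ctla4) was 0 with TMMwsp, limma voom, no filter, a minimum of 10 counts in every library (4 members tested) and equal depth, 2 with DESeq2 (Cd28 and Ctla4), 3 with scaling to the T cell list, and 0 to 2 with single libraries left out. The count called lower (3) was 0 with the minimum of 10 counts, a filter that by construction drops every gene absent from a library, and 1 to 4 with single libraries left out. That minimum left 1 call (Lgals3) of 7 among ligands, 0 of 6 among other coinhibitory receptors and 0 of 7 among partners. Partner calls were 13 with voom and 6 to 13 with single libraries left out, 12 without skin Tregs B and 13 without skin Tregs C. Directions turned for Tigit without skin Tregs C (-0.22, range -0.22 to 0.93 over left-out libraries), Lag3 with voom (-2.21), Havcr2 with voom (-4.36) and without skin Tregs B (-7.83, range -7.83 to 2.21), and the difference in the Ctla4 to Cd28 ratio (-0.03), which was -0.51 to 0.48 with single libraries left out, 0.48 without skin Tregs C, 0.036 without SDLN Tregs A and 0.039 without SDLN Tregs B. Apart from the filter, the cause was not tested. Over all genes, DESeq2 called 404 higher and edgeR 141, TMMwsp shifted the fold changes of single genes by a median of -0.11 and DESeq2 by 0.12, and the 10-count minimum raised the higher share of calls from 2.24% to 90.0%.

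No source says that a letter marks the same mice in both tissues, so the letters were not taken as pairs. Deviations from the group means correlated across genes at 0.046, -0.010 and 0.091 between same-lettered libraries. Between libraries of different letters the values were -0.082 to 0.051. With many genes at the floor in skin, these correlations cannot show whether the letters are pairs. A block by letter, chosen after the data were seen, called 0 members higher (Ctla4 at 1.14, adjusted p = 0.158) and 3 lower, 61 genes higher and 5633 lower over all genes, and gave -0.33 for Lag3 and -5.85 for Havcr2. In the pathway lists it lost the calls of Lgals3 (adjusted p = 0.0736), Pvr (0.0780), Cd6 (0.296), Bag6, Cblb, Csk and Grap2 (0.0630 to 0.0999) and called Lat, Lck and Ptpn6 lower (0.0428, 0.00105 and 0.0429). Depth limits the skin values: at the 3748669 counts of skin Tregs A, 3 counts are 0.800 CPM. Precision is further limited by a common dispersion of 2.04 and 3 libraries a group.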
